A study of Mus musculus with 12 samples.

Results

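The nuclear-encoded subunits of the mitochondrial respiratory chain and ATP synthase were examined in sorted mouse eosinophils, a granulocyte that lives both in blood and in fat. The set held every protein-coding gene of the GENCODE M21 annotation whose symbol starts with Ndufa, Ndufb, Ndufc, Ndufs, Ndufv, Sdh, Uqcr, Cox4 to Cox8 or Atp5, with the assembly factors of the Ndufaf and Sdhaf series left out. It came to 86 of the 54115 genes with a transcript in the quantification: 38 of complex I, 4 of complex II, 8 of complex III, 18 of complex IV and 18 of complex V. Complexes were assigned by symbol, so Ndufa4, which many sources now place in complex IV, is counted with complex I.

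Eosinophils had been sorted as live CD45+ CD11b+ Siglec-F+ cells in 12 RNA-seq libraries: 4 of gonadal white adipose tissue, 4 of subcutaneous white adipose tissue and 4 of peripheral blood. All came from 5 untreated wild-type male FVB/NJ mice, numbered 2668, 2683, 2771, 2807 and 2846, on a chow diet at 20 weeks of age, of which 2668 and 2807 gave all 3 tissues and the others 2 each. Fat, but not blood, was digested with collagenase at 1 mg/mL for 45 min at 37 °C, so digestion and tissue cannot be told apart. Libraries are named below by tissue and mouse, as in gonadal 2683. The labels do not say how many cells each library held.

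Complexes I to IV carry electrons from NADH and succinate to oxygen, and all but complex II pump protons across the inner mitochondrial membrane. Complex V, the ATP synthase, uses that proton gradient to make ATP. Most subunits are encoded in the nucleus and imported, while a small core is encoded in mitochondrial DNA, and eosinophils are described as using both glycolysis and mitochondrial respiration.

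The libraries held 4379954 to 23734940 reads. The lowest was subcutaneous 2846, in which mitochondrial ribosomal RNA took 28.0% of all reads, against 4.64% to 8.74% in the other 11. The 86 genes together held 0.106% to 0.276% of the reads in genes. Of the sort markers, Siglecf (Siglec-F) lay at 189 to 524 CPM (counts scaled to a common library size, with TMM factors) in gonadal, 149 to 467 in subcutaneous and 231 to 324 CPM in blood libraries and was not called. Ptprc (CD45) averaged 2120 and 2202 CPM in gonadal and subcutaneous, against 3968 CPM in blood libraries, and Itgam (CD11b) 985.7 and 919.6, against 1905 CPM. Both fell in each depot, by edgeR log2 fold changes of -0.90 and -0.85 for Ptprc (edgeR adjusted p = 0.0171 and 0.023) and of -0.95 and -1.05 for Itgam (edgeR adjusted p = 0.0152 and 0.00972). Ccr3, the eotaxin receptor of eosinophils, averaged 725 and 704 CPM in gonadal and subcutaneous, against 1526 CPM in blood libraries (log2 fold changes -1.07 and -1.12, edgeR adjusted p = 0.0316 and 0.0275). The 8 eosinophil markers, these 4 among them, summed to 3327 to 6780 CPM in gonadal, 3019 to 6508 in subcutaneous and 8025 to 8945 CPM in blood libraries, while the granule protein genes Epx and Prg2 of that list lay at 0 to 7.69 CPM. Of the 8, only Ptprc, Itgam and Ccr3 were called lower in each depot, and 0 were called higher. Il5ra and Adgre1 of the list were not called. The 8 macrophage markers summed to 977 to 5751 CPM in gonadal, 872 to 3694 in subcutaneous and 74.5 to 1100 CPM in blood libraries, and the 6 neutrophil markers to 191 to 419, 177 to 696 and 2548 to 4069 CPM in the same order. Every macrophage and neutrophil marker was above 0 in all libraries but 1, a blood library (mouse 2683) with 1 macrophage marker at 0. The 7 fibroblast markers summed to 82.9 to 465 CPM in gonadal, 142 to 4104 in subcutaneous and 0.26 to 11.5 CPM in blood libraries. By edgeR all 7 were called higher in each depot, as were 3 of the 5 adipocyte markers tested. The part of such cells, or of the 3 markers of the eosinophil list that were lower in fat, in the differences described here was not tested, and a smaller share of a cell type cannot be told apart from less RNA per cell.

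Few respiratory chain genes differed between fat and blood, and the calls pointed both ways. In gonadal against blood eosinophils 6 of the 79 members tested were called, 3 higher and 3 lower, which is 7.59% of the members against 27% of all 15367 genes tested (edgeR quasi-likelihood test, Benjamini-Hochberg adjusted p under 0.05). In subcutaneous against blood eosinophils 6 members were called, 1 higher and 5 lower, against 26.8% of all genes. Ndufa5, Ndufc2 and Uqcrb were the members that rose in gonadal eosinophils, and Cox7a2l, Ndufa6 and Atp5l those that fell. In subcutaneous eosinophils Ndufa5 rose, and Cox7a2l, Atp5l, Ndufa6, Atp5f1 and Uqcrc1 fell. Ndufa5, Ndufa6, Cox7a2l and Atp5l were called in both depots, each in the same direction, though both comparisons share the blood libraries. DESeq2 and limma-voom also called each of the 6 genes in either comparison, and the further members that they called numbered 3 and 2 by DESeq2 and 10 and 0 by limma-voom, in gonadal and in subcutaneous against blood. Of all genes, DESeq2 called 5426 and 5647 of 28788, and limma-voom 6484 and 4753 of 15367, in the same order.

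Other settings ended some calls. Without a filter on low counts, and likewise with an effective length offset, the gonadal calls on Atp5l, Ndufa6, Ndufc2 and Uqcrb and the subcutaneous calls on Atp5f1 and Uqcrc1 ended. Library totals without TMM ended the gonadal calls on Atp5l and Ndufa6, and counting protein-coding transcripts only ended the calls on Ndufa5 and Atp5l in both depots, on Ndufa6 in gonadal and on Uqcrc1 in subcutaneous against blood. Leaving out subcutaneous 2846 and blood 2807 together ended the gonadal calls on Ndufa6 and Uqcrb and the subcutaneous call on Uqcrc1.

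The remaining members were not called, and most of their fitted changes were small. Median log2 fold changes over the 79 were 0.20 in gonadal against blood, where all genes had a median of 0.08, and -0.21 in subcutaneous against blood, where all genes had 0.07. Of the 79 fitted values, 55 were above 0 in gonadal and 20 in subcutaneous eosinophils. The 95% interval of the change lay within 2-fold in either direction for 43 members in gonadal and 46 members in subcutaneous against blood, which is 54.4% and 58.2% of those tested, against 26.9% and 26.6% of all genes. Library values did not overlap between gonadal fat and blood for 9 members, or 11.4%, against 36.3% of all genes, and between subcutaneous fat and blood for 15 members, or 19.0%, against 29.5%. Both medians leaned on single libraries: the gonadal one became 0.06 without gonadal 2683, and the subcutaneous one -0.08 without subcutaneous 2846.

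**Figure D1:**
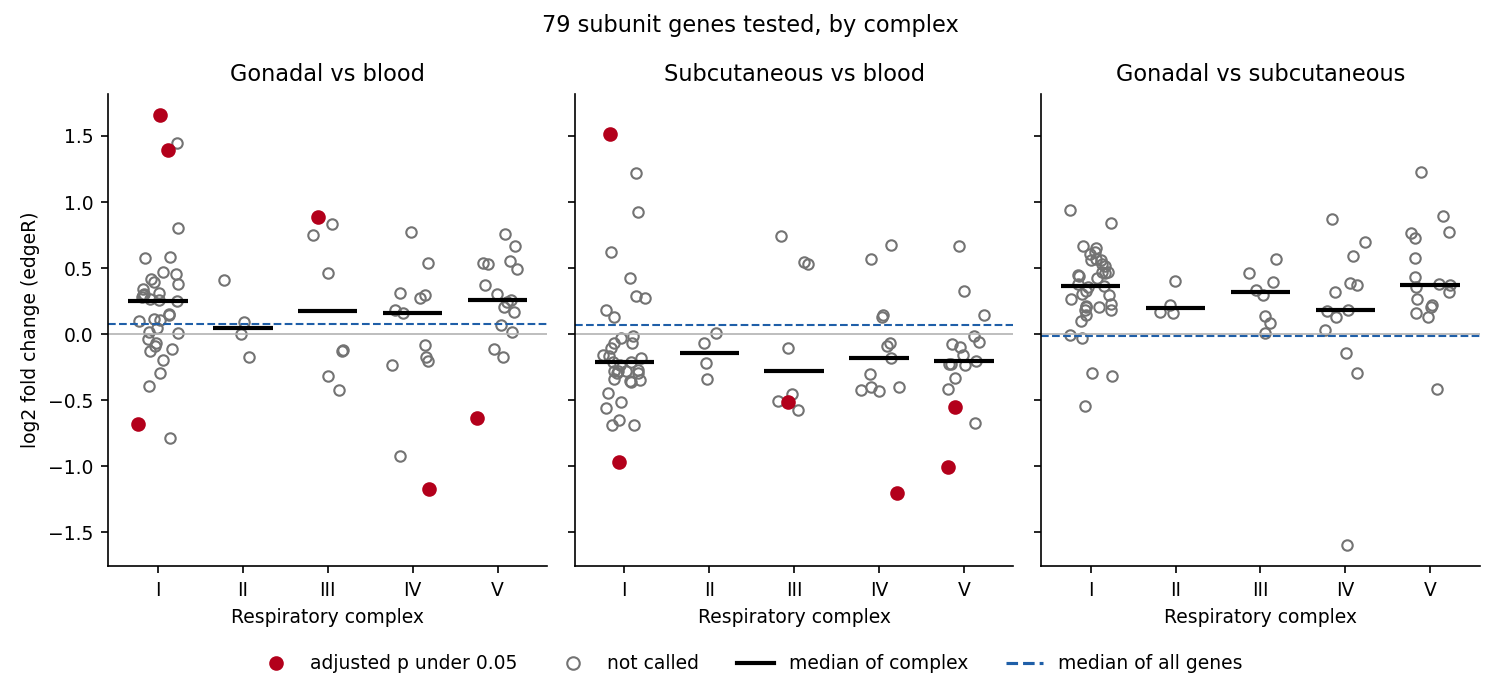
Log2 fold change (edgeR) of the 79 tested subunit genes by respiratory complex, in gonadal against blood, subcutaneous against blood and gonadal against subcutaneous eosinophils; filled points are called, bars are the median of a complex and the dashed line is the median of all genes tested. Calls are 6, 6 and 0 in the 3 panels, and the complex medians lie between -0.28 and 0.37.

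The 7 genes that did not pass the filter on low counts were Ndufa4l2, Cox4i2, Cox6a2, Cox7b2, Cox8b, Cox8c and a second annotated locus of Atp5o. Among the 79 tested, total reads over the 12 libraries ran between 114 and 34772, with a median of 3234.

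The start regions of the 4 genes called in both depots are shown because only these members were called in both comparisons with blood. Each window is the RefSeq start region on GRCm38.p6, with 250 bases before and 50 bases after the start, read 5′ to 3′ on the minus strand, on which all 4 genes lie. Capitals mark matches to 3 motifs, searched on both strands, of factors known to bind respiratory chain genes: GCGC, any 2 bases and GCGC of NRF1, CCGGAAG of GABP and other ETS factors, and AANATGGCG of YY1. The windows are chr6:24527477-24527776 (Ndufa5, 1 of 2 RefSeq starts, the one at the start of its most read transcript, which is annotated as non-coding), chr15:82354242-82354541 (Ndufa6), chr17:83514284-83514583 (Cox7a2l) and chr9:44920693-44920992 (Atp5l).
Ndufa5: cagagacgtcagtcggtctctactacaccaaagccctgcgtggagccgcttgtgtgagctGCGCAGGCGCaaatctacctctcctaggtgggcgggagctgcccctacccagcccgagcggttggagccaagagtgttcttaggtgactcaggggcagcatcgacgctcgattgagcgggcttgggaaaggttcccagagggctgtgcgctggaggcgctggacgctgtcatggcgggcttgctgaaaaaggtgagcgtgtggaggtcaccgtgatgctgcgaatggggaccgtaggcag
Ndufa6: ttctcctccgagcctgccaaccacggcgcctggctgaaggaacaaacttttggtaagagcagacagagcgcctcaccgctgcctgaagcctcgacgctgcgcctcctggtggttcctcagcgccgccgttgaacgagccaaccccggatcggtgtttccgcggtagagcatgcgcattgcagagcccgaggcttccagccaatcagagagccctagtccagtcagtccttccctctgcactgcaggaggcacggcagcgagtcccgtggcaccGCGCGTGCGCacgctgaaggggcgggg
Cox7a2l: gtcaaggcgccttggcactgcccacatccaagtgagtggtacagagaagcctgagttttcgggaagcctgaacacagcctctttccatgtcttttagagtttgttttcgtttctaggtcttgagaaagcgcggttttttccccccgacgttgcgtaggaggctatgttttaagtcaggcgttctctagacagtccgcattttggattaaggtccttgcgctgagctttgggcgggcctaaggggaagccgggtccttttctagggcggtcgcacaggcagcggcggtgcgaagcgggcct
Atp5l: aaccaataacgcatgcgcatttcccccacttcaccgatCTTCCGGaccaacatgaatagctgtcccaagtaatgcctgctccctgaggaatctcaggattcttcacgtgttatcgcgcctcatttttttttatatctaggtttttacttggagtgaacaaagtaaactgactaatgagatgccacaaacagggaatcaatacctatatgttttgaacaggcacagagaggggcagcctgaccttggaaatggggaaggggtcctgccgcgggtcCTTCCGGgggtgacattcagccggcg
In these letters an NRF1-type match lies before the start of the non-coding transcript in Ndufa5. That match lies inside the first exon, of 488 bases, of the main coding transcript. In Ndufa6 an NRF1-type match lies after the start, Atp5l holds an ETS-type match on either side of its start, and Cox7a2l holds none of the 3 motifs. No matches of different motifs overlapped in these windows. Over the 69 members with a window, 19 held the NRF1-type motif, or 27.5%, against 6.997% of the 27025 genes with a window. The ETS-type motif stood in 16 members, or 23.2%, against 9.93% of all genes, and the YY1-type in 10, or 14.5%, against 2.76%. These shares describe letters in a window, not bound sites.

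Complex I, the NADH dehydrogenase, had 37 members tested. In gonadal against blood eosinophils 2 were called higher and 1 lower, or 8.11%, against 27% of all genes. In subcutaneous against blood 1 was called higher and 1 lower, or 5.41%, against 26.8%. The median log2 fold change of the complex was 0.25 in gonadal and -0.21 in subcutaneous eosinophils against blood. The called genes are all accessory subunits, as are 30 of the 37 members tested.

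Ndufa5, an accessory subunit of the peripheral arm on chromosome 6 (24518666 to 24528013, minus strand, mm10), had 9.23, 8.79, 11.9 and 8.16 CPM in gonadal libraries and 10.8, 7.29, 9.73 and 6.77 CPM in subcutaneous libraries, against 3.80, 1.08, 4.50 and 2.68 CPM in blood libraries. Here and for the genes below, gonadal values are those of mice 2846, 2807, 2683 and 2668, subcutaneous values those of mice 2846, 2807, 2771 and 2668, and blood values those of mice 2807, 2771, 2683 and 2668. Every fat library was above every blood library. The log2 fold change was 1.66 ± 0.40 (SE, 3.16-fold; edgeR adjusted p = 0.00925) in gonadal against blood and 1.51 ± 0.40 (2.85-fold; edgeR adjusted p = 0.0152) in subcutaneous against blood.

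Summed over the libraries of each depot, most Ndufa5 reads fell on transcripts annotated as non-coding. Of the Ndufa5 reads, 35.2% in gonadal and 3.96% in subcutaneous libraries fell on its protein-coding transcripts, against 43.8% in blood libraries, and most others on a processed transcript that shares 4 of its 5 exons with the coding one. With protein-coding transcripts alone the log2 fold change was 1.07 (edgeR adjusted p = 0.666) in gonadal against blood and -2.14 (edgeR adjusted p = 0.378) in subcutaneous against blood, so both calls ended and the second value changed sign. The main coding transcript had 172.1 reads in gonadal 2683 and 78.2 in blood 2683, against 0 to 17.9 in each of the other 10 libraries. Mouse 2683 gave no subcutaneous library, so the lower coding share in subcutaneous libraries cannot be told apart from the absence of that mouse.

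**Figure D2:**
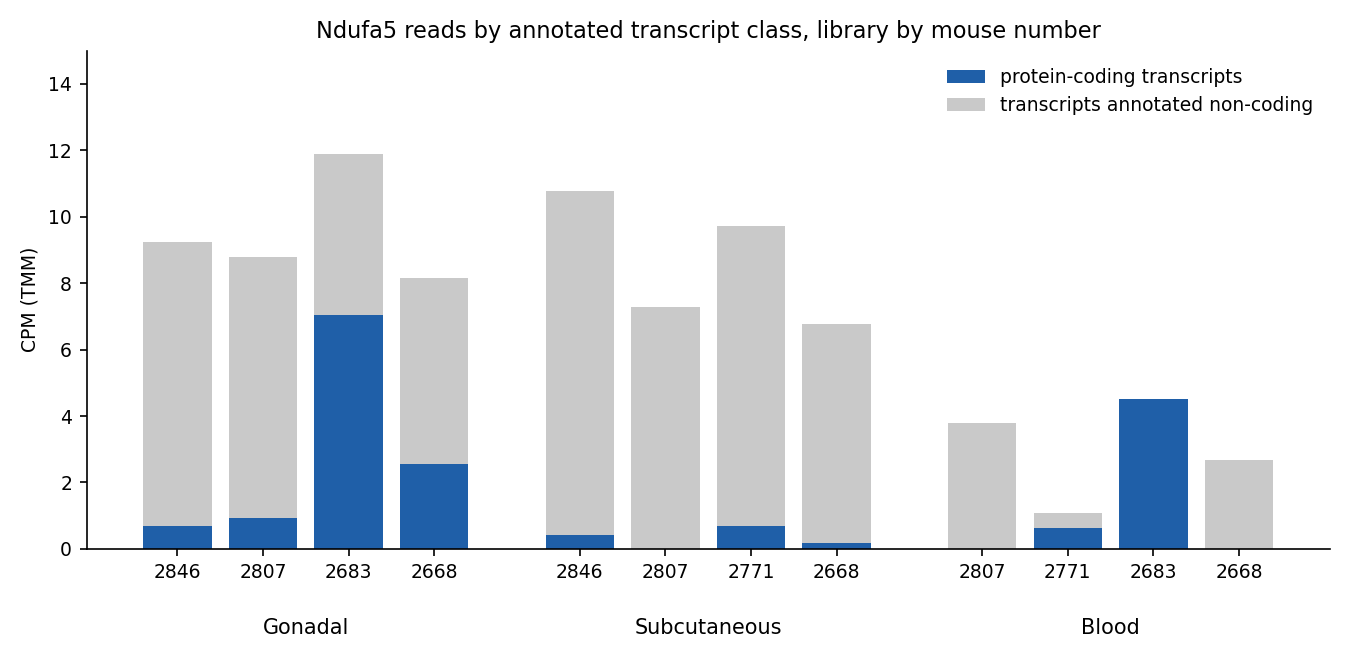
Ndufa5 level in CPM (TMM) in each library, named by mouse number, split into reads on protein-coding transcripts (dark) and on transcripts annotated as non-coding (light). All 8 fat bars are taller than the 4 blood bars, and the dark share is largest in the 2 libraries of mouse 2683.

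Ndufc2, an accessory subunit of the membrane arm on chromosome 7, had 7.06, 5.69, 8.64 and 4.63 CPM in gonadal libraries, against 2.02, 2.72, 2.36 and 2.78 CPM in blood libraries, with no overlap. It rose by a log2 fold change of 1.39 ± 0.38 (2.63-fold; edgeR adjusted p = 0.0183) in gonadal against blood. In subcutaneous libraries it had 2.99, 5.47, 6.9996 and 3.16 CPM, and its log2 change against blood was 0.93 ± 0.38 (edgeR adjusted p = 0.0899), and 1.09 (edgeR adjusted p = 0.049) without subcutaneous 2846. The gonadal call ended without gonadal 2846 or gonadal 2683 or blood 2683, at edgeR adjusted p between 0.0509 and 0.0641.

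Ndufa6, an accessory subunit of the LYR motif family on chromosome 15 (82350140 to 82354322), went the other way. It had 41.7, 25.4, 41.8 and 25.1 CPM in gonadal libraries and 22.5, 35.9, 22.1 and 28.7 CPM in subcutaneous libraries, against 58.3, 49.7, 46.6 and 60.1 CPM in blood libraries. Every blood library was above every fat library. The log2 fold change was -0.97 ± 0.22 (edgeR adjusted p = 0.00776) in subcutaneous against blood, a call that none of the alternatives run ended. In gonadal against blood it was -0.68 ± 0.22 (edgeR adjusted p = 0.0379), and that call ended without any 1 of the 4 blood libraries or without gonadal 2807 or gonadal 2668 (edgeR adjusted p between 0.0557 and 0.0987), and with mouse as a replicate block (edgeR adjusted p = 0.0725).

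**Figure D3:**
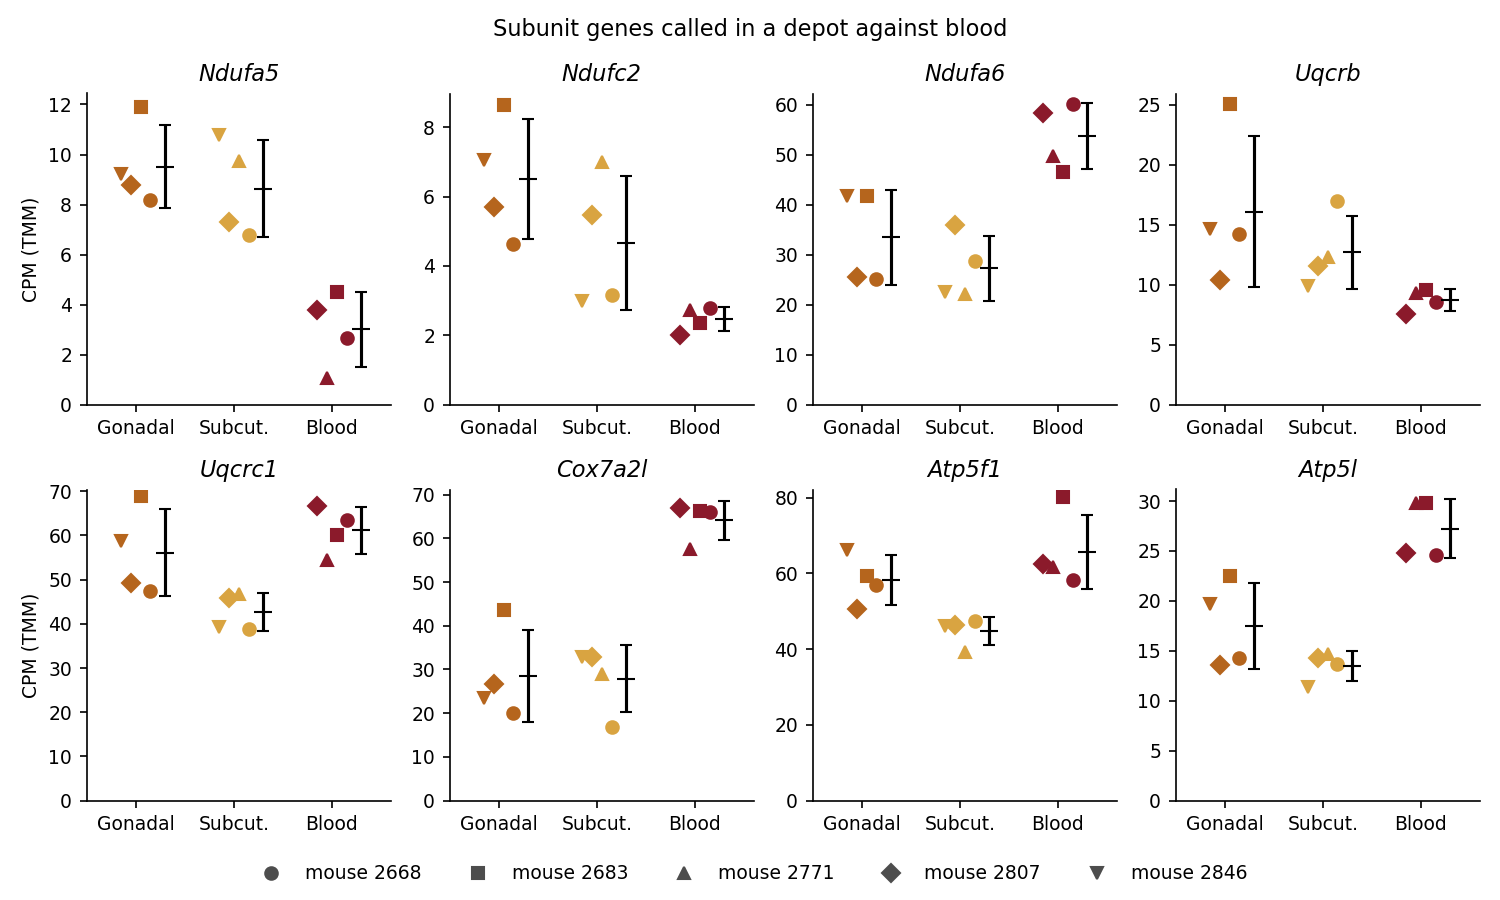
CPM (TMM) of the 8 subunit genes called in a depot against blood, in each of the 12 libraries; colors and positions give the group, symbols the mouse, and black bars the mean ± SD of 4 libraries. Ndufa5, Ndufc2 and Uqcrb sit higher in fat, and Ndufa6, Cox7a2l and Atp5l lower, with no overlap with blood.

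Complex II, succinate dehydrogenase, which also serves the tricarboxylic acid cycle, kept close to its blood level. None of its 4 subunits was called by edgeR, DESeq2 or limma-voom in any comparison, and 0 had an unadjusted p under 0.05 in edgeR. Of all genes, edgeR called 27% in gonadal and 26.8% in subcutaneous against blood. An unadjusted p under 0.05 was found in edgeR for 39.7% and 40.0% of all genes, in the same order. Counts over only 4 genes cannot show that the complex differed from those shares. Sdha, the flavoprotein, averaged 104.4 ± 13.0 CPM in gonadal, 93.4 ± 8.66 in subcutaneous and 98.0 ± 6.40 CPM in blood libraries (SD, n = 4 each). Sdhb, the iron-sulfur subunit, averaged 39.9 ± 5.08, 34.0 ± 11.9 and 39.8 ± 5.51 CPM in the same order. The membrane anchors Sdhc and Sdhd had log2 fold changes of 0.41 and -0.17 in gonadal and of 0.00 and -0.34 in subcutaneous against blood. The 95% interval lay within 2-fold for 3 of the 4 genes in gonadal, Sdhc being the exception at -0.23 to 1.05, and for all 4 in subcutaneous against blood.

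Complex III, the cytochrome bc1 complex, had 1 of 8 members called in each depot, and not the same one. That is 12.5% of its members, against 27% of all genes in gonadal and 26.8% in subcutaneous against blood. Library values did not overlap between subcutaneous fat and blood for 5 of the 8, or 62.5%, against 29.5% of all genes. Between gonadal fat and blood they did not overlap for 1, or 12.5%, against 36.3%. Uqcrb, a small subunit near the ubiquinone site, had 14.7, 10.4, 25.1 and 14.3 CPM in gonadal libraries and 9.88, 11.6, 12.3 and 16.998 CPM in subcutaneous libraries, against 7.54, 9.30, 9.53 and 8.53 CPM in blood libraries. All fat libraries lay above all blood libraries, the highest being gonadal 2683. It rose by a log2 fold change of 0.88 ± 0.28 (edgeR adjusted p = 0.0344) in gonadal against blood, and had 0.55 ± 0.28 (edgeR adjusted p = 0.166) in subcutaneous against blood. The gonadal call ended without any 1 of the 4 blood libraries or of gonadal 2846 and gonadal 2683 (edgeR adjusted p between 0.0661 and 0.149, with a log2 fold change of 0.56 without gonadal 2683), and with mouse as a replicate block (edgeR adjusted p = 0.0551). Of the reads of Uqcrb and its 3 near-identical copies, 36.0% were counted in the copies, so its level is uncertain.

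Uqcrc1, a core protein of the matrix side, had 39.2, 45.9, 46.8 and 38.9 CPM in subcutaneous libraries, against 66.8, 54.4, 60.03 and 63.6 CPM in blood libraries. No values overlapped, and the log2 fold change was -0.52 ± 0.15 (edgeR adjusted p = 0.0232). It had 58.7, 49.2, 68.9 and 47.5 CPM in gonadal libraries, which overlapped blood at -0.13 ± 0.15 (edgeR adjusted p = 0.575). Its subcutaneous call ended without blood 2683 or subcutaneous 2668 (edgeR adjusted p = 0.0516 and 0.0556), and with mouse as a replicate block (edgeR adjusted p = 0.085). Uqcrq and Uqcrh, the members of this complex with the highest levels per length at 27.0 and 26.1 TPM (length-scaled abundance, mean of 12 libraries), were not called by edgeR, though limma-voom called both in gonadal against blood, Uqcrq higher and Uqcrh lower.

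In complex IV, cytochrome c oxidase, 1 of 13 tested members was called by edgeR, and it was the same gene in both depots. That is 7.69% of those tested, against 27% of all genes in gonadal and 26.8% in subcutaneous against blood. Cox7a2l, also known as SCAF1, is a homolog of the subunit Cox7a2 that joins complexes III and IV into supercomplexes, and it lies on chromosome 17 (83501918 to 83517330). It had 23.5, 26.7, 43.7 and 20.0 CPM in gonadal libraries and 32.9, 33.0, 28.9 and 16.9 CPM in subcutaneous libraries, against 66.9, 57.5, 66.2 and 66.0 CPM in blood libraries. The highest fat library, gonadal 2683, stayed below the lowest blood library. Cox7a2l fell, with log2 fold changes of -1.17 ± 0.26 (0.444-fold; edgeR adjusted p = 0.00584) in gonadal and -1.20 ± 0.26 (0.434-fold; edgeR adjusted p = 0.00534) in subcutaneous against blood. It was called in both depots under all alternatives run, and with 1 library left out its log2 fold change stayed between -1.48 and -1.03 in gonadal and between -1.30 and -1.01 in subcutaneous against blood. At least 99.5% of its reads in each group fell on its coding transcript, and a near-identical copy, Gm6969, held 10.5% of the reads of gene and copy together.

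The other 12 tested complex IV members were not called by edgeR or DESeq2. Limma-voom called 1 of them, Cox7b, higher in gonadal against blood. Cox6c and Cox8a had the highest level per length, with means of 40.1 and 36.8 TPM over the 12 libraries. Cox6c had log2 fold changes of 0.19 and -0.18, and Cox8a of -0.24 and -0.42, in gonadal and in subcutaneous against blood.

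Complex V had 17 members tested. In gonadal against blood 1 was called lower, or 5.88%, against 27% of all genes. In subcutaneous against blood 2 were called lower, or 11.8%, against 26.8%. The medians of the complex were 0.26 and -0.20 in the same order. Atp5l, subunit g of the membrane part, where it helps the synthase form dimers, had 19.7, 13.5, 22.5 and 14.3 CPM in gonadal libraries and 11.4, 14.3, 14.7 and 13.7 CPM in subcutaneous libraries, against 24.7, 29.8, 29.8 and 24.6 CPM in blood libraries. No fat value reached a blood value. Its log2 fold change was -1.01 ± 0.20 (0.498-fold; edgeR adjusted p = 0.00377) in subcutaneous and -0.64 ± 0.20 (edgeR adjusted p = 0.0326) in gonadal against blood. The gonadal call ended without blood 2771 or blood 2683 or gonadal 2807 or gonadal 2668 (edgeR adjusted p between 0.0735 and 0.0929), and with mouse as a replicate block (edgeR adjusted p = 0.0772).

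Atp5l has 4 near-identical copies elsewhere that held 45.1% of the reads of gene and copies together, so its count is uncertain. With the reads of its copies added, leaving out any protein-coding copy, its log2 fold change in gonadal against blood was -0.34 (edgeR adjusted p = 0.263). Its coding transcript took 74.8% of its reads in gonadal and 56.3% in subcutaneous libraries, against 48.4% in blood libraries. On coding reads alone neither call held, with log2 fold changes of -0.09 in gonadal and -0.85 in subcutaneous against blood (edgeR adjusted p = 0.869 and 0.0759).

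Atp5f1, subunit b of the peripheral stalk, had 46.1, 46.5, 39.3 and 47.5 CPM in subcutaneous libraries, against 62.6, 61.6, 80.1 and 58.4 CPM in blood libraries, with no overlap. It fell, with a log2 fold change of -0.55 ± 0.14 (edgeR adjusted p = 0.0147) there. In gonadal libraries it had 66.3, 50.5, 59.4 and 57.0 CPM, at -0.17 ± 0.14 (edgeR adjusted p = 0.404) against blood. The subcutaneous call ended without blood 2683 (edgeR adjusted p = 0.0555). Atp5f1 overlaps Wdr77 on the opposite strand, so reads of the 2 genes may be mixed, and only 23.7% of its subcutaneous and 36.0% of its blood reads fell on coding transcripts.

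None of the 5 subunits of the catalytic F1 part, Atp5a1, Atp5b, Atp5c1, Atp5d and Atp5e, was called by edgeR or DESeq2 in either depot (1 at an unadjusted p under 0.05 in each by edgeR), and limma-voom called 1, Atp5d, higher in gonadal against blood. Atp5b, the catalytic beta subunit, had log2 fold changes of 0.24 in gonadal and -0.08 in subcutaneous against blood. Per length it and Atp5h, subunit d of the peripheral stalk, were the highest of the complex, at means of 42.9 and 55.3 TPM over the 12 libraries, and Atp5h had the highest mean of all 86 genes.

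The summed level of the 86 genes overlapped between gonadal fat and each of the other groups. It was 2064, 1729, 2559 and 1855 CPM in gonadal libraries (mice 2846, 2807, 2683 and 2668) and 1387, 1716, 1732 and 1772 CPM in subcutaneous libraries (mice 2846, 2807, 2771 and 2668), against 1972, 1749, 2034 and 2004 CPM in blood libraries (mice 2807, 2771, 2683 and 2668). The gonadal range took in every blood value, and 1 subcutaneous library, of mouse 2668, lay above the lowest blood library. Gonadal 2683 had the highest and subcutaneous 2846 the lowest sum in each of the 5 complexes. That gonadal library also had the highest macrophage marker sum, at 5751 CPM, and that subcutaneous library the highest sum of 7 fibroblast markers, at 4104 CPM, and of mitochondrially encoded subunits, at 31392 CPM. Blood 2771 had the lowest blood sum in each complex and the highest sum of 6 erythroid markers, at 8353 CPM. The part of these in the sums was not tested.

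**Figure D4:**
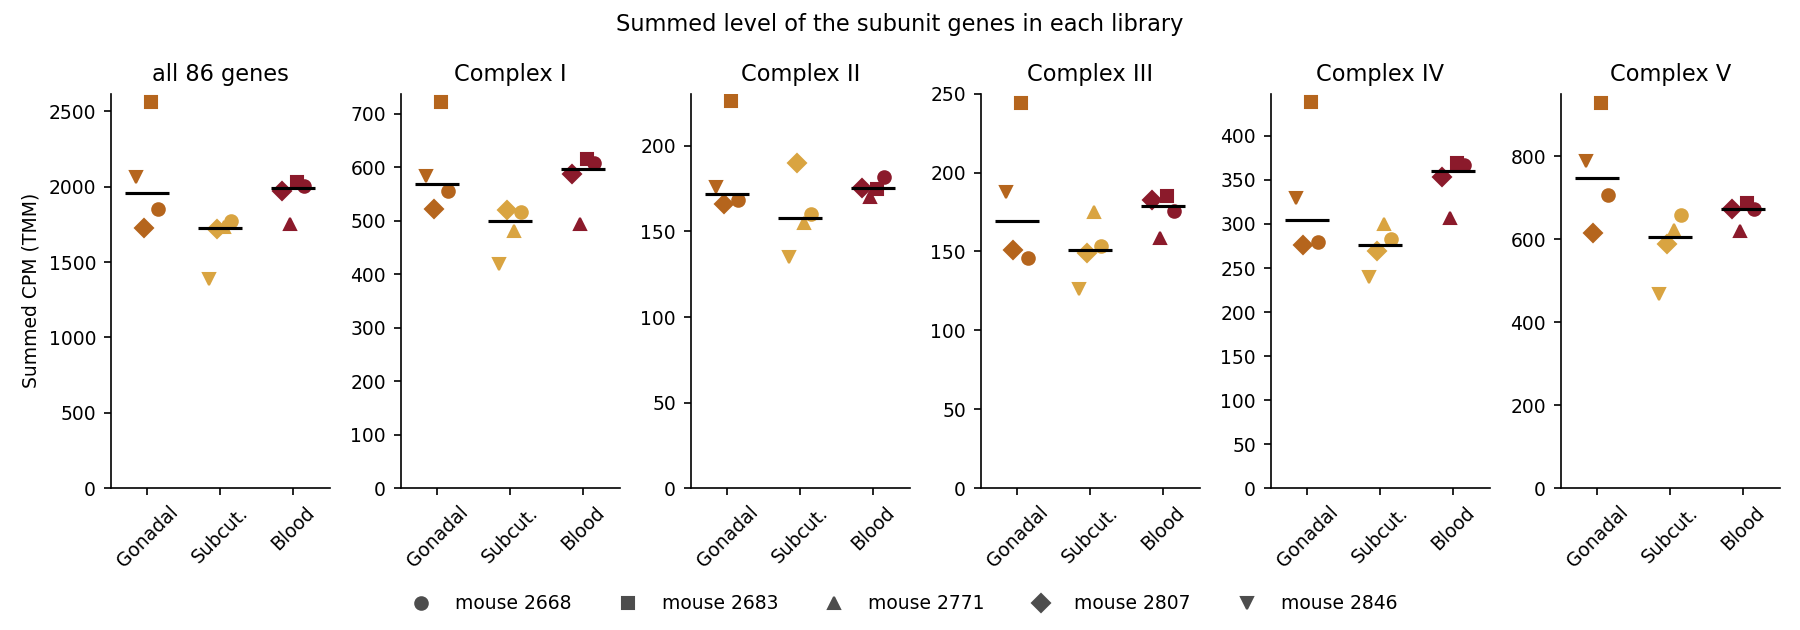
Summed CPM (TMM) of all 86 subunit genes and of the genes of each complex in each library; colors and positions give the group, symbols the mouse, and bars the group median. Gonadal 2683 is the highest and subcutaneous 2846 the lowest in every panel.

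Gonadal and subcutaneous eosinophils were compared directly. No member was called by edgeR, where 0.00651% of all genes were, and 9 members, or 11.4%, had an unadjusted p under 0.05, against 8.03% of all genes. DESeq2 and limma-voom called 0 members as well, where they called 167 of 28788 and 0 of 15367 genes. Yet 70 of 79 fitted values were above 0, with a median log2 fold change of 0.34 against -0.01 over all genes, and the median of each complex lay between 0.18 and 0.37. Without gonadal 2683 the median was 0.19, and without subcutaneous 2846 it was 0.26. Library totals without TMM gave 0.47 for the members, where the median of all genes was 0.13.

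Library values of the 2 depots did not overlap for 5 members, or 6.33%, against 3.62% of all genes. These were Ndufa7, Ndufv3, Uqcrc1, Atp5f1 and Atp5o, named after their values were seen. Atp5o, the stalk subunit called OSCP, averaged 19.9 ± 6.49 CPM in gonadal and 10.6 ± 2.06 CPM in subcutaneous libraries (SD, n = 4 each), with a log2 fold change of 0.89 (edgeR adjusted p = 0.459).

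Several complex IV subunits exist as alternative genes, one used in most tissues and others known from heart and skeletal muscle, lung or testis. Eosinophils of all 3 sources held mainly the common form. Cox4i1 lay between 22.7 and 47.9 TPM over the 12 libraries, against 0 to 0.58 TPM for Cox4i2, its lung form. Cox6a1 lay between 12.2 and 33.6 TPM, against 0 to 0.16 TPM for Cox6a2, the heart and muscle form. Cox8a lay between 12.3 and 55.1 TPM, while its muscle form Cox8b had 7 reads in all and Cox8c, a testis form, had 0 reads in all 12 libraries, which allows a level of up to 0.0158 CPM over the libraries together.

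Of the other pairs, Cox7b had 4.83 to 51.3 TPM against 0 to 0.26 TPM for Cox7b2, and Cox6b1 had 3.55 to 39.1 TPM against 0 to 3.55 TPM for the testis form Cox6b2. Cox7a2 had 4.14 to 13.5 TPM, its homolog Cox7a2l 5.45 to 31.1 TPM and the muscle form Cox7a1 0 to 2.36 TPM. Ndufa4 had 0.59 to 14.2 TPM and its hypoxia-linked relative Ndufa4l2 0 to 2.35 TPM, with 16 reads in all. The rarer form exceeded the common one in 1 library and pair, with 2.35 TPM of Ndufa4l2 and 0.59 TPM of Ndufa4 in subcutaneous 2846. These rest on only 7 and 2 reads in the shallowest library. The 8 skeletal muscle markers summed to 0.56 to 3.06 CPM over the 12 libraries, with Mb, Myh1 and Myl1 at 0 in all.

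Subunit c, which forms the rotor ring, is encoded by 3 genes that give the same mature protein. Atp5g3 lay between 1.23 and 15.2 TPM, Atp5g2 between 0 and 11.6 TPM and Atp5g1 between 0 and 10.4 TPM, ranges that overlap. The zeros of Atp5g1 and Atp5g2 both came from subcutaneous 2846.

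**Figure D5:**
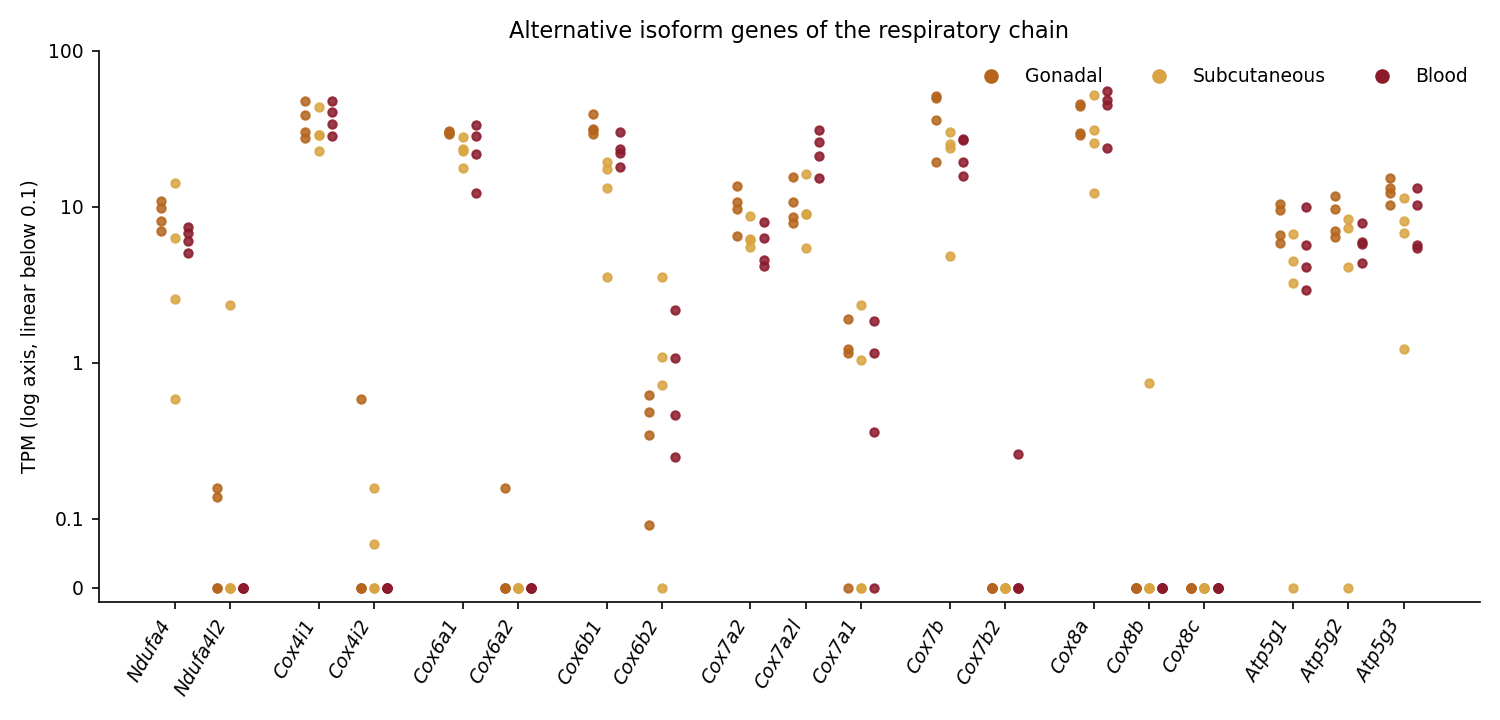
TPM of alternative isoform genes in each library, on a log axis that is linear below 0.1, with gonadal, subcutaneous and blood libraries side by side for each gene. Cox4i1 lies between 22.7 and 47.9 and Cox8a between 12.3 and 55.1, while Cox8c is at 0 in all 12 libraries.

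Other genes of the pathway were described from lists chosen by function. Of 49 tested assembly factors, 5 rose and 2 fell in gonadal against blood, and 6 rose and 3 fell in subcutaneous against blood, 14.3% and 18.4% called against 27% and 26.8% of all genes. The list's median log2 fold changes were 0.12 and -0.02, against 0.08 and 0.07 over all genes. Ttc19, which acts on complex III, averaged 13.0 ± 2.40 CPM in gonadal and 13.4 ± 2.44 in subcutaneous libraries, against 6.56 ± 1.85 CPM in blood libraries (SD, n = 4 each; log2 fold changes 0.98 and 1.03, edgeR adjusted p = 0.0176 and 0.0147). Of the complex I assembly factors, Ecsit rose in both depots (log2 fold changes 1.52 and 1.45 in gonadal and in subcutaneous against blood, edgeR adjusted p = 0.0198 and 0.0248), and Tmem126b fell in both (-1.23 and -1.39, edgeR adjusted p = 0.0246 and 0.0155). Acad9 rose in subcutaneous against blood (0.69 ± 0.20, edgeR adjusted p = 0.0223) and had 0.47 ± 0.20 (edgeR adjusted p = 0.0949) in gonadal against blood. Gonadal calls ended on Ecsit without blood 2771, blood 2668, gonadal 2846 or gonadal 2683, on Tmem126b without blood 2771, blood 2683, gonadal 2846 or gonadal 2668 or with mouse as a replicate block (edgeR adjusted p = 0.0533), and on Ttc19 without blood 2683 or gonadal 2668. The subcutaneous call on Acad9 ended without blood 2771, blood 2683 or blood 2668, and all of these losses with 1 library left out had edgeR adjusted p between 0.0512 and 0.0753.

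Genes next to the chain were also looked at. Of cytochrome c, Cyc1 of complex III, the ATPase inhibitor Atpif1 and the synthase subunit Usmg5, whose symbols are outside the rule, 3 of 4 rose in gonadal and 2 of 4 in subcutaneous against blood, where 15.4% of all genes rose in each, and their medians were 1.25 and 0.76. Cycs, the electron carrier between complexes III and IV, averaged 20.5 ± 2.88 CPM in gonadal and 16.5 ± 5.33 in subcutaneous libraries, against 7.92 ± 1.90 CPM in blood libraries (log2 fold changes 1.37 and 1.07, edgeR adjusted p = 0.00355 and 0.0133). Atpif1, which blocks reverse rotation of the synthase, averaged 57.5 ± 19.6 CPM in gonadal and 29.8 ± 5.93 in subcutaneous libraries, against 21.2 ± 4.87 CPM in blood libraries (1.44, edgeR adjusted p = 0.00182, and 0.49, edgeR adjusted p = 0.167). Usmg5 rose in both (1.13 and 1.02, edgeR adjusted p = 0.00735 and 0.0128). The subcutaneous calls on Cycs and Usmg5 ended without blood 2668 (edgeR adjusted p = 0.0508 and 0.0509).

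Of 12 tested regulators of mitochondrial biogenesis, 2 rose and 6 fell in gonadal against blood, where 15.4% of all genes rose and 11.6% fell. In subcutaneous against blood 1 rose and 4 fell, where 15.4% of all genes rose and 11.4% fell. The list's medians were -0.44 and -0.38, against 0.08 and 0.07 over all genes. Pprc1, a coactivator of the PGC-1 family, rose (1.58 and 1.51 in gonadal and in subcutaneous against blood, edgeR adjusted p = 0.00223 and 0.00305). Tfb2m, a factor of the mitochondrial transcription complex, had 6.72, 3.75, 5.46 and 3.72 CPM in gonadal and 4.19, 2.54, 4.34 and 3.53 CPM in subcutaneous libraries, against 13.5, 16.2, 13.2 and 14.5 CPM in blood libraries. It fell without overlap in both depots (-1.55 and -1.98, edgeR adjusted p = 0.00249 and 0.000672). Twnk, the mitochondrial DNA helicase, fell too (-1.98 and -1.99, edgeR adjusted p = 0.00474 and 0.00531).

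In the tricarboxylic acid cycle 3 of 13 genes rose and 1 fell in gonadal, and 3 rose and 2 fell in subcutaneous against blood, 30.8% and 38.5% called against 27% and 26.8% of all genes, with medians of 0.25 and -0.06. Mdh2, the mitochondrial malate dehydrogenase, averaged 98.2 ± 12.9 CPM in gonadal and 86.6 ± 20.2 in subcutaneous libraries, against 226.6 ± 33.5 CPM in blood libraries (SD, n = 4 each; -1.21 and -1.39, edgeR adjusted p = 0.000654 and 0.000291). Fh1, fumarate hydratase, and Suclg2, a subunit of succinyl-CoA ligase, rose, by 1.46 and 1.21 in gonadal and by 1.17 and 1.29 in subcutaneous against blood (edgeR adjusted p = 0.0075 and 0.00792, and 0.0223 and 0.00606). The subcutaneous call on Fh1 ended without blood 2683 or blood 2668 or subcutaneous 2771, at edgeR adjusted p between 0.0579 and 0.0792.

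Of the subunits encoded in mitochondrial DNA, 12 were tested. None was called by edgeR, where 27% of all genes were (0 at an unadjusted p under 0.05), DESeq2 or limma-voom in gonadal against blood. In subcutaneous against blood DESeq2 called 5 of 13 higher, where it called 5647 of 28788 genes in either direction. Limma-voom called 1 of 12 higher there, a gene other than mt-Nd1, where it called 4753 of 15367 genes. By edgeR 1, mt-Nd1, rose there (1.83 ± 0.58, edgeR adjusted p = 0.0356). That value was 0.91 (edgeR adjusted p = 0.111) without subcutaneous 2846, whose mt-Nd1 level of 4257 CPM stood above 664 to 1149 CPM in the other subcutaneous libraries; the call also ended without blood 2807, 2683 or 2668 or gonadal 2846 (edgeR adjusted p between 0.0503 and 0.0847), and with mouse as a replicate block (edgeR adjusted p = 0.0992). In gonadal against subcutaneous eosinophils edgeR called 0 genes of these lists, with 3 assembly factors, 1 mitochondrially encoded subunit, 1 cycle gene and 1 of the 4 genes outside the rule at an unadjusted p under 0.05. DESeq2 called 1 assembly factor lower there, where it called 167 of 28788 genes, and limma-voom called 0 genes.

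Among the pathway genes named, the effective length offset ended the calls on Usmg5 and Fh1 in both depots, on Ttc19, Suclg2 and Tfb2m in gonadal and on Cycs and Pprc1 in subcutaneous against blood. Counting protein-coding transcripts only ended those on Ttc19 in both depots, on Tmem126b in gonadal and on Acad9 in subcutaneous against blood. Library totals without TMM ended the subcutaneous calls on Acad9 and Fh1, no filter on low counts those on Acad9 and mt-Nd1, and limma-voom that on mt-Nd1.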

How the data were processed

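Eosinophil RNA was sequenced in 12 libraries, prepared with a stranded total RNA kit with low input, per the labels' protocols. The submitters' processing notes name Trim Galore 0.6.4, Salmon 1.6.0, DESeq2 1.30.1 and the build mm10, and the transcript set and strand setting are not given in the sources used here. The deposited files give, per transcript, the authors' estimated counts, TPM and effective length. Of 140992 transcripts, 139791 matched GENCODE M21 by identifier, and the rest held 0.351% to 0.538% of the reads. Estimated counts and TPM were summed per gene here, and counts rounded. edgeR 4.0.16 (R 4.3.3; TMM, filterByExpr by group, robust quasi-likelihood F test, all 12 libraries in 1 fit with group as the only term) tested 15367 genes, with Benjamini-Hochberg adjustment over all of them and a threshold of 0.05. The common coefficient of variation was 0.545. SEs were derived from the F statistic, and 95% intervals from t with the fit's degrees of freedom. p-values measure the spread between these libraries.

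Mouse numbers mark the same animal, so they pair libraries by design: residuals of the 9 same-mouse pairs correlated at -0.11 to 0.36. Mouse as a block was an alternative, since not all mice gave all samples. Other alternatives were RLE factors, no TMM, DESeq2 1.42.0, limma-voom 3.58.1 with quality weights, no filter, protein-coding transcripts only, an effective length offset, leaving out each library, and leaving out subcutaneous 2846 with blood 2807. Adding the reads of near-identical copies (at least 97% identity over at least 200 bases, found for 17 members) was chosen after seeing the data. That setting left out copies that are protein-coding genes or members, and added each copy to 1 member only. Of the reads of gene and copies together, the copies held 77.7% for Ndufb4, 75.1% for Ndufs5 and 58.4% for Ndufa12. The levels of these genes are uncertain too. The fit was tested on simulated data. Members and lists were chosen with earlier results of these data known. Named were all called members, the 2 members of each complex with the highest mean TPM, the isoform families, complex II and up to 3 called genes per other list and comparison. Promoter windows are RefSeq's. Protein sequences are not used here. Values of the complex I core subunits as a group are not reported here.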

Additional observations from a re-analysis of the deposited data

Results flagged for a closer look

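Of 75 sets of 4 library values examined, 3 held a value far from the others of its group by Dixon's criterion, where chance alone flags about 1 in 20. The Cox7a2l level of blood 2771, 57.5 CPM, lay below the other blood libraries, with a gap of 0.909 of the group's range, and was still above every fat library. The same library held 8353 CPM of erythroid markers, against 17.7 to 143.5 CPM in the other blood libraries, and the lowest blood sum in each of the 5 complexes, and the part of this in its Cox7a2l level was not tested. The summed level of all 86 genes was 1387 CPM in subcutaneous 2846, below the other subcutaneous libraries, with a gap of 0.854 of the range. That library was also the shallowest. The summed level of complex II was 226.1 CPM in gonadal 2683, above the other gonadal libraries, with a gap of 0.832 of the range.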

How the results depend on the processing

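Members called in gonadal against blood eosinophils were 3 higher and 3 lower. They became 5 higher and 4 lower with DESeq2, and 10 and 6 with limma-voom. Both the setting without a filter on low counts and the effective length offset gave 1 and 1. Without TMM they were 3 and 1, and with mouse as a replicate block 2 and 1. Leaving out subcutaneous 2846 and blood 2807 gave 5 and 2. Of all genes, DESeq2 called 5426 of 28788 there, and limma-voom 6484 of 15367. Members called in subcutaneous against blood were 1 higher and 5 lower. They became 2 higher and 6 lower with DESeq2, and 2 and 5 with copies added. Both the setting without a filter and the length offset gave 1 and 3, and protein-coding transcripts only gave 0 and 3. Leaving out 1 library gave 1 to 6 higher and 1 to 4 lower in gonadal, and 1 to 2 higher and 3 to 7 lower in subcutaneous against blood. Gonadal against subcutaneous gave 0 under all alternatives run. Ndufa5 reversed in sign with coding transcripts only, at -2.14 in subcutaneous against blood, and was not called there. The replicate block gave 2 higher in gonadal and 4 lower in subcutaneous against blood, and changed no named gene's call other than those given beside the results. The cause of these shifts was not tested, except that the coding and copy settings count other reads. Over single genes, 1651 values kept their call or stayed within 1 SE, 33 moved by more than 1 SE with no call, 93 lost a call, 4 gained one and 1 reversed.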
